A study of Mus musculus with 47 samples.

Results

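The 10 neuronal immediate early genes were followed in hippocampal RNA from male C57BL/6J mice, and they were chosen by name from a list of genes known to be switched on by neuronal activity. They were Fos, Fosb, Junb, Arc, Egr1, Egr2, Egr4, Npas4, Nr4a1 and Ier2, which are 10 of the 35486 genes in the count table, and all 10 passed the filter on low counts together with 17778 genes in all. Mice had received vehicle (Veh) or mouse platelet factor 4 (PF4), a chemokine released by platelets, by daily intraperitoneal injection, and the hippocampus of each was sequenced. The groups were Young Veh (n = 13, aged 3.75 to 5.26 months), Young PF4 (n = 12, 4.08 to 5.03 months), Old Veh (n = 12, 17.5 to 20.0 months) and Old PF4 (n = 10, 17.4 to 20.2 months). All groups were of the same strain and sex. The injections of the behavioural cohorts preceded each day of training and testing, and the interval from the last injection or test to dissection was not given in the sources used here. Whole tissue was measured, so fewer active neurons and less RNA per active neuron cannot be told apart.

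Immediate early genes are transcribed within minutes of synaptic input because the transcription factors that switch them on, such as CREB, SRF and MEF2, are already present and need only a calcium or kinase signal. Most of them encode transcription factors that start a later wave of synaptic and secreted gene products, and Arc encodes a protein that acts at the synapse itself. In the hippocampus their RNA is widely used as a mark of recently active neurons, and it decays quickly once the stimulus ends.

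The promoters are shown because calcium and cAMP signals reach these genes through CREB, which binds the cAMP response element. Its core letters, TGACG, were searched on both strands, where the reverse complement reads CGTCA, in the 250 bases before the start site in RefSeq's promoter table for GRCm38.p6. The core was present in all 7 members with an entry (Fos, Fosb, Junb, Egr2, Egr4, Npas4 and Nr4a1), against 17.8% of 32851 promoters of the same length and 19.8% of 27025 genes. Egr2 had 5 entries with separate start sites and partly overlapping windows, and the other 6 had 1 each, so that a match in any of the 5 windows counted for Egr2. Arc, Egr1 and Ier2 had no entry. The full element, whose 8 letters contain the core, was in 0 of the 7 genes, in 1.55% of all promoters and in 1.77% of all genes. The CArG box, to which SRF binds, was found among the 7 in Egr2 alone, in 1.47% of all promoters and in 1.62% of all genes. Sites farther upstream than these 250 bases, or with letters outside the exact pattern, were not searched, so a gene without a match here may have one elsewhere. TATA box letters were found among the 7 in Fos alone, in 12.4% of all promoters and in 14.3% of all genes. The windows below hold no base of an exon annotated in GENCODE M21, read 5′ to 3′ on the gene's own strand, and carry the core in capitals. The Fos window (chr12:85473640-85473889, plus strand) held 2 copies, Fosb (chr7:19310052-19310295, minus strand) and Junb (chr8:84978749-84978998, minus strand) 1 each, and Nr4a1 (chr15:101266596-101266845, plus strand) 4, all of them in the reverse orientation. The Nr4a1 window lies within the annotated gene (chr15:101254269-101274795) and precedes an internal start site of it. A match is a description of these letters and not of a bound site.
Fos: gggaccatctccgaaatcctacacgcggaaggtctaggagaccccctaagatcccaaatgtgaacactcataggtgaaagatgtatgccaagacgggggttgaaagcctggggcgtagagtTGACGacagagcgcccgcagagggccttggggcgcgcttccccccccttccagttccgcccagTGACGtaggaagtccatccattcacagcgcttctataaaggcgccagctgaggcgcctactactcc
Fosb: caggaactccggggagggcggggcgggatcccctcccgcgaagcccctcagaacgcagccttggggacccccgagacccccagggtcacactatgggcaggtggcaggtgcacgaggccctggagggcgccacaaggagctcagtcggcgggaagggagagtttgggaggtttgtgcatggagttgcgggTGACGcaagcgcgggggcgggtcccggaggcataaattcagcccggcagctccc
Junb: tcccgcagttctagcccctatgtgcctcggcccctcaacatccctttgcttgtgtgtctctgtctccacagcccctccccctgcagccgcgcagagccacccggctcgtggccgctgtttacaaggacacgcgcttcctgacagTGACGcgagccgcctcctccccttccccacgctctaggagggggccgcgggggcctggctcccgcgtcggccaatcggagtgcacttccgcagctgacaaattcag
Nr4a1: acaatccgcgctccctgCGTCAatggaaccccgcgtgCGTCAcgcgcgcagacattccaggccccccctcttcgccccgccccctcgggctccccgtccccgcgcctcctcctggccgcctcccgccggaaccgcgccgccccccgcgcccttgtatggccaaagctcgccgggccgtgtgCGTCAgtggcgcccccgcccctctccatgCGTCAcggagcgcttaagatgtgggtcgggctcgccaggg

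Total counts per library ran from 2242879 to 21112908, and 8 libraries held under 5000000 counts, of which 4 were Old Veh, 2 Young PF4, 1 Young Veh and 1 Old PF4. Neurons were present as labelled, since the summed level of 6 neuron markers lay between 5862 and 8050 CPM (counts scaled to a common library size) in every library, and no marker of any list was at 0 throughout a group. The 10 choroid plexus markers, which mark tissue next to the hippocampus, ranged from 12.0 to 4259 CPM in Young Veh libraries and from 15.1 to 4259 CPM in Old Veh libraries. Summed levels of the other marker lists in Young Veh and Old Veh libraries had medians of 417 and 444 CPM for dentate granule cells, 1221 and 1209 for CA pyramidal cells, 182 and 181 for endothelium, 392 and 434 for microglia, 4195 and 4478 for astrocytes, 6312 and 6827 for oligodendrocytes, 1943 and 47.1 for choroid plexus and 2.79 and 3.29 for red blood cells. In Young PF4 and Old PF4 libraries the medians, in the same order of lists, were 416 and 405, 1224 and 1225, 186 and 172, and 378 and 472 CPM. For the last 4 lists they were 4081 and 4399, 6160 and 7286, 2380 and 65.9, and 2.35 and 3.46 CPM. Library numbers in the labels formed separate ranges for Young mice, Old Veh mice and Old PF4 mice, so that library number cannot be told apart from age, or from treatment in Old mice. In this unstranded protocol reads of overlapping genes cannot be told apart by strand, and Junb was the member that overlapped another annotated gene, Prdx2, on the opposite strand (32807 reads for Junb and 63279 for Prdx2 over all libraries).

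All 10 genes were detected in every library, at levels that differed widely between genes. Expressed as median CPM per kilobase of the longest transcript, the levels were 37.9 for Arc, 36.3 for Junb, 30.3 for Egr1, 18.3 for Nr4a1, 14.3 for Egr4, 5.35 for Ier2, 4.22 for Fos, 0.952 for Fosb, 0.662 for Npas4 and 0.553 for Egr2. The most abundant were the synaptic gene Arc and the transcription factors Junb and Egr1, while Npas4, a factor made mainly by neurons, was read from 1 to 56 times per library. Counting error alone gave a coefficient of variation of 21.8% at the median count of Npas4 and 23.6% at that of Egr2, against 2.72% for Egr1.

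The AP-1 factors Fos, Fosb and Junb, which pair as dimers to bind DNA, are given here as CPM after TMM scaling. Fos ran from 4.78 to 18.1 CPM (median 8.41) in Young Veh mice, from 6.62 to 17.5 (median 10.1) in Young PF4, from 5.14 to 18.4 (median 8.04) in Old Veh and from 6.91 to 15.2 (median 8.96) in Old PF4. The 4 groups covered nearly the same span, and the spread within a group was far larger than the distance between their medians. Fosb ran from 1.97 to 4.47 CPM (median 3.54) in Young Veh, from 2.60 to 4.44 (median 3.46) in Young PF4, from 1.82 to 7.35 (median 3.88) in Old Veh and from 3.27 to 5.69 (median 4.22) in Old PF4. Old PF4 mice had the highest Fosb median, with ranges that overlapped in all groups. Junb had medians of 65.3, 65.1, 72.3 and 66.4 CPM in Young Veh, Young PF4, Old Veh and Old PF4 within an overall range of 50.2 to 119 CPM. Its highest value, 119 CPM in Old PF4 replicate 8, stood apart from the other 9 mice of that group.

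The zinc finger factors Egr1, Egr2 and Egr4 and the orphan nuclear receptor Nr4a1 regulate plasticity and metabolic genes in neurons. Egr1 ran from 111 to 176 CPM (median 137) in Young Veh, from 126 to 159 (median 143) in Young PF4, from 109 to 191 (median 131) in Old Veh and from 122 to 182 (median 136) in Old PF4. Egr1 was the steadiest member, with a 1.76-fold distance between the highest and the lowest of the 47 mice. Nr4a1 medians were 45.8, 47.2 and 48.1 CPM in Young Veh, Old Veh and Old PF4, with Young PF4 just below these, within an overall range of 32.1 to 72.4 CPM, and Egr4 medians between 27.8 CPM in Old Veh and 31.1 CPM in Young PF4, within 17.1 to 40.7 CPM. Egr2 had medians of 1.31, 1.93, 1.59 and 2.40 CPM in Young Veh, Young PF4, Old Veh and Old PF4 and ranged over 9.77-fold, from 0.512 to 5.00 CPM. Its PF4 medians were above the Veh medians at both ages, with overlapping ranges.

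Arc, whose product binds the synaptic endocytic machinery and lowers surface glutamate receptors, ran from 73.2 to 193 CPM (median 117) in Young Veh, from 89.6 to 176 (median 112) in Young PF4, from 90.8 to 181 (median 125) in Old Veh and from 90.6 to 161 (median 112) in Old PF4. The groups lay on top of each other, as for Fos. Npas4, a basic helix-loop-helix factor that responds to calcium entry in neurons, ran from 1.14 to 4.64 CPM (median 2.53) in Young Veh, from 0.372 to 3.74 (median 1.54) in Young PF4, from 1.47 to 4.08 (median 2.39) in Old Veh and from 1.96 to 5.59 (median 2.81) in Old PF4. Young PF4 mice had the lowest median and Old PF4 mice the highest, and every group overlapped every other. Ier2, a nuclear protein of the rapid response, ran from 5.98 to 17.5 CPM (median 9.16) in Young Veh, from 3.72 to 11.7 (median 9.33) in Young PF4, from 3.49 to 8.82 (median 6.78) in Old Veh and from 4.68 to 12.3 (median 8.61) in Old PF4. Old Veh mice were low in Ier2, and their highest mouse was below the Young Veh median. For each of the 10 genes the largest step between neighbouring groups, ordered by mean log2 CPM, was smaller than the residual SD between mice, and reached 0.885 SD for Npas4 and 0.841 SD for Ier2. The share of all genes with such a step was not computed. The lowest and highest group means lay more than 1 residual SD apart for Npas4, Ier2 and Fosb. They were 0.876 in Young PF4 and 1.71 in Old PF4 for Npas4 (SD 0.557). For Ier2 they were 2.73 in Old Veh and 3.17 in Young Veh (SD 0.376), and for Fosb 1.82 in Young Veh and 2.18 in Old PF4 (SD 0.352).

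**Figure D1:**
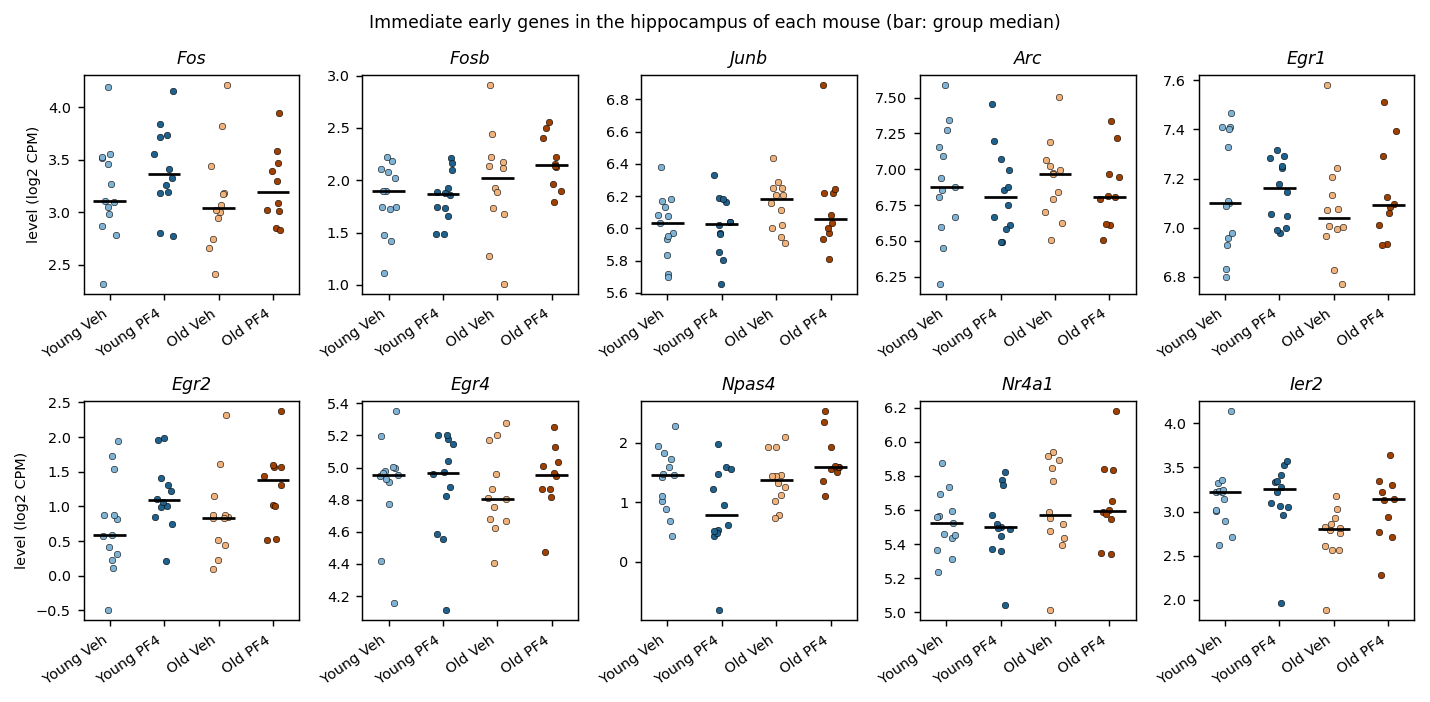
Level of each of the 10 genes in each of the 47 mice (log2 CPM, vertical axis with its own range in each panel) by group (horizontal axis), where points are mice and bars are group medians. Groups overlap in every panel, Old Veh mice sit low for Ier2 (median 6.78 CPM against 9.16 in Young Veh), and 1 Old PF4 mouse sits high for Junb (119 CPM).

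The comparison of Old Veh with Young Veh mice asked what age did without treatment. None of the 10 genes passed the threshold (0 called by edgeR's quasi-likelihood test at a Benjamini-Hochberg adjusted p below 0.05), against 2.77% of the 17778 genes tested. An unadjusted p below 0.05 was reached by 1 of the 10 and by 15.2% of all genes, and DESeq2 called 1 of the 10 and 3.8% of the genes to which it gave an adjusted p, in both cases Ier2 among the members. The level of Ier2 in Old Veh mice differed from that in Young Veh mice by a log2 fold change of -0.47 (SE 0.14, p = 0.00166 and adjusted p = 0.0548 by edgeR's quasi-likelihood test). With DESeq2 the value was -0.46 with an adjusted p of 0.0321, and over the other 9 settings tried with edgeR the adjusted p was between 0.0456 and 0.142. Of 25 fits with 1 library left out, 5 called Ier2. They were those without Young Veh replicate 6, 8 or 11 or Old Veh replicate 5 or 9, with log2 fold changes of -0.49, -0.51, -0.50, -0.50 and -0.49 and edgeR adjusted p of 0.0468, 0.0330, 0.0384, 0.0490 and 0.0424. Without Old Veh replicate 7, the mouse with the lowest Ier2, the log2 fold change was -0.41 with an edgeR adjusted p of 0.104. Without Young Veh replicate 4, the mouse with the highest Ier2, the log2 fold change was -0.34 with an edgeR adjusted p of 0.127. That library also had the lowest length index of all, -0.35, where the index sets the level of long transcripts against short ones, and with the index as a covariate the Ier2 fold change was -0.33 with an edgeR adjusted p of 0.116. Its part in the result was not tested further. The other 9 log2 fold changes lay between -0.09 for Fos (SE 0.17) and 0.14 for Fosb (SE 0.14), with Arc at -0.00424 (SE 0.12). The median of the 10 genes was -0.01, the same as that of all genes tested (-0.01).

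In mice given PF4, Old against Young, 0 of the 10 genes were called by edgeR's quasi-likelihood test, against 0.332% of all genes tested. An unadjusted p below 0.05 was reached by 2, Npas4 and Fosb, and by 8.27% of all genes. DESeq2 called 0 members and 0.446% of the 20160 genes to which it gave an adjusted p. Npas4 was at a log2 fold change of 0.73 (SE 0.23, p = 0.00217, edgeR adjusted p = 0.188) and Fosb at 0.33 (SE 0.15, p = 0.0286, edgeR adjusted p = 0.523). Npas4 rested on a median of 14 reads in Young PF4 and 26.5 in Old PF4 libraries. Without Young PF4 replicate 1, the highest Npas4 level of its group, its log2 fold change was 0.90 with an edgeR adjusted p of 0.0428, and without Young PF4 replicate 8, where 1 read was counted, it was 0.68 with 0.244. Ier2 was at -0.12 (SE 0.15). Fos was at -0.17 (SE 0.18), and the remaining 6 genes lay between -0.00108 for Egr1 and 0.14 for Nr4a1. The comparison shares no mice with that of the Veh groups.

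PF4 in Old mice was compared next, since the study asked whether the factor alters the aged hippocampus. Of the 10 genes 0 were called by edgeR's quasi-likelihood test, against 0.0337% of all genes. An unadjusted p below 0.05 was reached by 1 of the 10 and by 6.2% of all genes. DESeq2 called 0 members and 0.167% of the 14382 genes to which it gave an adjusted p. The gene below 0.05 was again Ier2, at a log2 fold change of 0.34 (SE 0.15, p = 0.0296, edgeR adjusted p = 0.752). This comparison and that of age in Veh mice share the Old Veh mice, so the low Ier2 values of that group enter both. The largest fold change was that of Egr2, 0.40 (SE 0.27), and Fos, Fosb, Egr1, Egr4, Nr4a1 and Npas4 were at 0.14, 0.23, 0.07, 0.08, 0.05 and 0.28. Arc, at -0.06 (SE 0.13), was the member below 0, so that 9 of 10 fold changes were above 0, as were 54% of those of all genes tested, and the median of the 10 was 0.11 against 0.01.

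In Young mice, PF4 against Veh, 0 of the 10 genes were called by edgeR's quasi-likelihood test, against 0% of all genes. An unadjusted p below 0.05 was reached by 0 of the 10 genes and by 1.2% of all genes. DESeq2 called 0 members and 0% of the 27514 genes to which it gave an adjusted p. Npas4 was at -0.42 (SE 0.21, p = 0.0533, edgeR adjusted p = 1.00), Egr2 at 0.34 (SE 0.24) and Fos at 0.22 (SE 0.16). The remaining 7 genes lay between -0.07 for Arc and 0.04 for Fosb.

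The PF4 effect in Old mice minus that in Young mice was tested directly, and 0 of the 10 genes were called by edgeR's quasi-likelihood test, against 0% of all genes. An unadjusted p below 0.05 was reached by 1 member and by 3.98% of all genes. DESeq2 called 0 members and 0% of the 27514 genes to which it gave an adjusted p. Npas4 had the largest difference, 0.70 on the log2 scale (SE 0.31, p = 0.0264, edgeR adjusted p = 1.00), followed by Ier2 at 0.34 (SE 0.20, p = 0.0982). The other 8 lay between -0.08 and 0.19. This difference shares the Young PF4 mice with the comparisons of age in PF4 mice and of PF4 in Young mice. The low Npas4 values of that group therefore enter all of them.

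**Figure D2:**
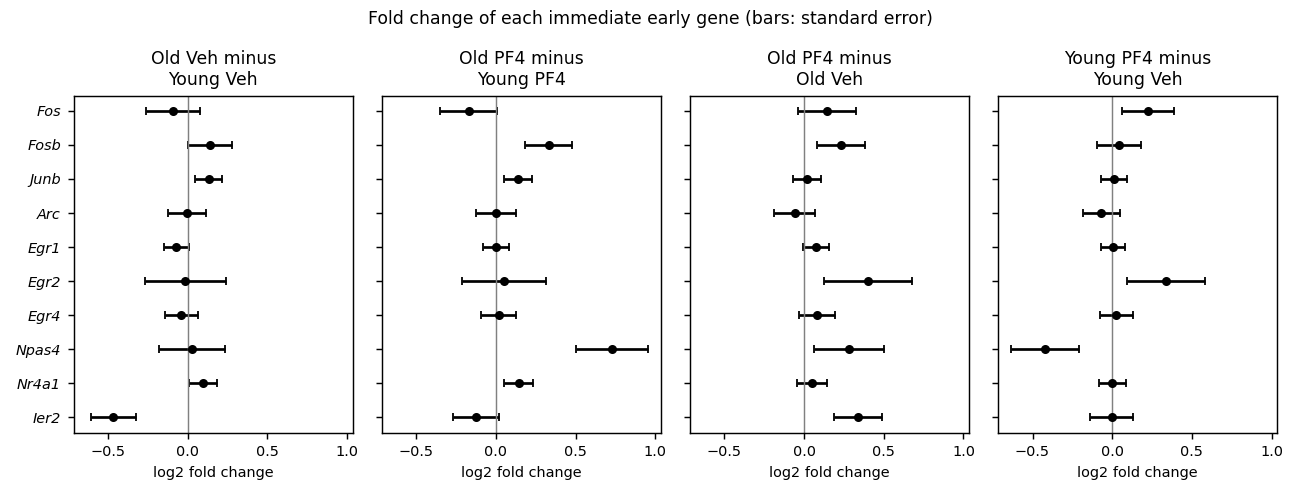
Log2 fold change (horizontal axis) of each of the 10 genes (vertical axis) in the 4 group comparisons, where points are edgeR estimates and bars their standard errors. Most points lie within 1 or 2 standard errors of 0, and the points farthest from it in units of their error are Ier2 in Old Veh minus Young Veh (-0.47, SE 0.14) and Npas4 in Old PF4 minus Young PF4 (0.73, SE 0.23).

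Individual mice differed within groups, and the fitted spread of most of these genes was above the trend over genes of like abundance. The biological coefficient of variation fitted by edgeR was 26.6% for Fos, 20.2% for Arc, 36.8% for Egr2 and 29.6% for Npas4, where the trend over genes of like abundance was at 17.2%, 10.2%, 24.1% and 22.7%. It was above the trend in 9 of the 10 genes, the exception being Fosb at 17.1% against 20.5%. The share of all tested genes above their own trend was not computed, so the 9 cannot be set against it. The residual SD of log2 CPM, once group means were removed, ran from 0.198 for Egr1 to 0.591 for Egr2, with Fos at 0.438 and Arc at 0.312. Ranked by this SD over all tested genes, whatever their abundance, the members lay between 44.6% (Egr1) and 89.8% (Egr2) of the way up.

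The spread between mice was shared. Over the 45 pairs of members, with group means removed, Pearson's r across the 47 mice had a median of 0.314 and was above 0 in 42 pairs. At least 0.5 was reached by 12 pairs, or 26.7%, against 2.94% of all pairs of tested genes, whose median was -0.001. The adjusted p, from permutation of mice within groups and Benjamini-Hochberg adjustment over the 45 pairs, was below 0.05 in 22 pairs for r and in 23 for Spearman's rho. The points of a pair share their library, its depth and its tissue makeup. The median r was 0.344 within Young mice and 0.372 within Old mice.

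The tightest pair was that of the synaptic gene Arc and the transcription factor Egr1, at r = 0.764 and rho = 0.707 (permutation p = 1e-05 for each, the smallest that 100000 resamples can give, adjusted p = 5.62e-05 and 7.5e-05). It was 0.736 in Young and 0.827 in Old mice, and 0.727 without the 2 mice farthest from the median Arc level. Fos and Arc were at r = 0.730 and rho = 0.667 (permutation p = 1e-05 for each, adjusted p = 5.62e-05 and 7.5e-05), with 0.700 in Young mice, 0.791 in Old mice and 0.655 without the 2 farthest. Mice high in Fos were therefore also high in Arc in both age groups. Arc and Nr4a1 were at r = 0.717 and rho = 0.753 (permutation p = 1e-05 for each, adjusted p = 5.62e-05 and 7.5e-05), with 0.745 and 0.748 in Young and Old mice and 0.709 without the 2 farthest. Fos, Junb, Arc, Egr1 and Nr4a1, named together after their values were seen and so without a test as a group, had r between 0.575 and 0.764 in their 10 pairs, with a median of 0.652. They include the 4 members with the highest level per kilobase, and Fos.

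Egr2 had its highest r with Egr1, 0.545 (rho = 0.552, permutation p = 0.00034 and 0.00022, adjusted p = 0.00127 and 0.000825), which was 0.508 in Young mice, 0.587 in Old mice and 0.462 without the 2 farthest. Ier2 had its highest r with Junb, 0.617 (rho = 0.588, permutation p = 3e-05 and 4e-05, adjusted p = 0.000123 and 0.0002), with 0.643 in Young mice, 0.605 in Old mice and 0.539 without the 2 farthest, while with Egr1 it was at 0.196 (rho = 0.201, permutation p = 0.192 and 0.181, adjusted p = 0.269 and 0.263; 0.0939 in Young, 0.322 in Old, and 0.109 without the 2 farthest). The difference between these correlations was not tested, and with Old libraries left out in turn, an alternative chosen after seeing the data, the Old value with Egr1 lay between 0.197 (without Old Veh replicate 9) and 0.498 (without Old Veh replicate 7). Fosb, the close relative of Fos, was at r = 0.376 with Fos (rho = 0.282, permutation p = 0.0172 and 0.0635, adjusted p = 0.0368 and 0.106), with 0.241 in Young and 0.495 in Old mice, and that value rested on few mice, since it was 0.260 without the 2 farthest. Egr4 was at r = 0.431 with Arc (rho = 0.444, permutation p = 0.00459 and 0.00239, adjusted p = 0.0129 and 0.00768), and 0.317 without the 2 farthest. It was 0.630 in Young and 0.0303 in Old mice, a difference that was not tested. With each library of that age left out in turn in the same way, the Young value lay between 0.574 and 0.680 and the Old value between -0.228 without Old Veh replicate 9 and 0.276 without Old PF4 replicate 8, so the Old value turned on single mice. Without Old Veh replicate 9 the Old values of Egr2 with Egr1 and of Fosb with Fos were 0.379 and 0.268. The lowest value of all pairs was that of Egr4 and Ier2, -0.134 (rho = -0.0463, permutation p = 0.383 and 0.758, adjusted p = 0.492 and 0.793), with -0.199 in Young mice, -0.022 in Old mice and 0.087 without the 2 farthest.

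Npas4 had low correlations with the other members over all mice. Its r with the other 9 genes ran from -0.0599 to 0.202 with a median of 0.0922, and with Arc it was 0.105 (rho = 0.0611, permutation p = 0.506 and 0.696, adjusted p = 0.606 and 0.746; 0.188 in Young mice, -0.0793 in Old mice, 0.0456 without the 2 farthest). Within Young mice the 9 values ran from -0.0577 to 0.393 and within Old mice from -0.304 to 0.0107, a difference that was not tested. The highest Young values, with Nr4a1, Ier2 and Junb, were 0.393, 0.303 and 0.274. Without Young PF4 replicate 8 they were 0.131, -0.115 and 0.0473, so they turned on that library. The highest, with Nr4a1, was 0.202 (rho = 0.128, permutation p = 0.171 and 0.397, adjusted p = 0.249 and 0.510; 0.393 in Young mice, -0.0101 in Old mice, 0.0868 without the 2 farthest), and it was 0.0639 without Young PF4 replicate 8, the library with 1 Npas4 read. With Ier2 it was 0.0922 (rho = -0.0620, permutation p = 0.557 and 0.681, adjusted p = 0.630 and 0.746; 0.303 in Young mice, -0.304 in Old mice, -0.213 without the 2 farthest) and -0.175 without that library. Egr2, with a median of 18 reads per library against 21 for Npas4 and a biological coefficient of variation of 36.8% against 29.6%, had a median r of 0.369 with the other members. Whether the counting error of Npas4 hides a relation was not tested.

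**Figure D3:**
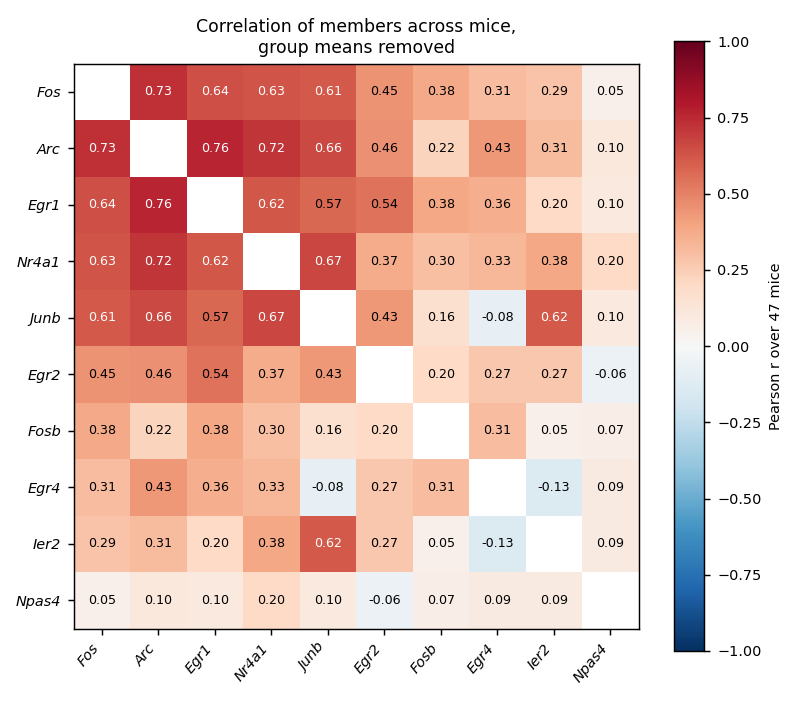
Pearson's r between each pair of the 10 genes over 47 mice, with group means removed and colour from -1 (blue) to 1 (red). Fos, Arc, Egr1, Nr4a1 and Junb form a block at 0.575 to 0.764, and the Npas4 margin lies between -0.0599 and 0.202.

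**Figure D4:**
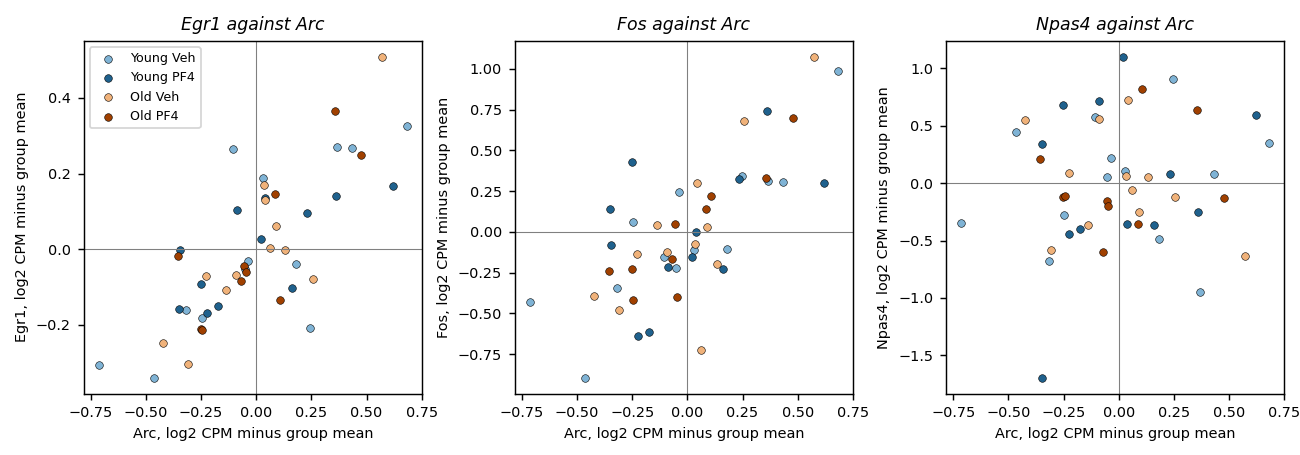
Egr1, Fos and Npas4 (vertical axes) against Arc (horizontal axes) in each mouse, all as log2 CPM minus the group mean, with points coloured by group. The Egr1 and Fos clouds rise with Arc (r = 0.764 and 0.730), and the Npas4 cloud does not (r = 0.105).

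A mean z-score over the 10 genes, taken after removal of group means, gives the position of each mouse. It ran from -1.48 in Young PF4 replicate 8 to 1.64 in Old Veh replicate 9. Both ends were among the shallow libraries, with 2655463 and 2748842 total counts, and 1 of 10 genes in the former and 9 of 10 in the latter lay above the group mean. All 10 genes were above the group mean in 2 mice, Young Veh replicate 1 and Old PF4 replicate 7, with 15681156 and 10088525 total counts, and 0 mice had all 10 below it. The SD of the score was 0.636 in Young Veh, 0.692 in Young PF4, 0.663 in Old Veh and 0.631 in Old PF4, so that no group stood out by its spread. The median r over the pairs was 0.251 without Old Veh replicate 9 and 0.232 without the 8 shallow libraries, against 0.314 with all.

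Members were also set against 9 measures of each library, namely the total count, the length index and 7 cell type marker scores, which made 90 relations. With group means removed, the permutation p adjusted over the 90 was below 0.05 in 3 relations for r and in 0 for rho, where 11 had an unadjusted permutation p of rho below 0.05. Egr4 was at r = 0.551 with the length index (rho = 0.215, permutation p = 0.00032 and 0.166, adjusted p = 0.0144 and 0.568; 0.595 in Young, 0.458 in Old and 0.358 without the 2 farthest). With the astrocyte score Egr4 was at r = -0.519 (rho = -0.244, permutation p = 0.00017 and 0.0963, adjusted p = 0.0144 and 0.457; -0.558 in Young, -0.495 in Old and -0.362 without the 2 farthest), and Junb at 0.511 (rho = 0.402, permutation p = 0.00108 and 0.0073, adjusted p = 0.0324 and 0.220; 0.385 in Young, 0.614 in Old and 0.271 without the 2 farthest). None of the 3 passed for rho, and each was smaller without the 2 libraries farthest in the measure. Fos was at r = -0.431 with the log2 total count (rho = -0.246, permutation p = 0.00412 and 0.106, adjusted p = 0.0927 and 0.457; -0.330 in Young, -0.556 in Old and -0.296 without the 2 farthest). After regression on the total count and the choroid plexus score the median r of the 45 pairs was 0.331, and after regression on the length index and the astrocyte score, an alternative chosen after seeing the data, it was 0.344.

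Companion lists place the 10 genes in their pathway. Of 30 other rapid response genes 29 were tested, and in Old Veh against Young Veh mice 1 of them was called by edgeR's quasi-likelihood test, against 2.77% of all genes, of whose 492 calls 384 were higher in Old mice. An unadjusted p below 0.05 was reached by 5 of the 29, against 15.2% of all genes. The called gene was Sik1, a kinase that restrains CREB coactivators, which fell by 0.69 on the log2 scale (SE 0.17, adjusted p = 0.0112). Nr4a3, a relative of Nr4a1, was at 0.38 (SE 0.11, edgeR adjusted p = 0.0546) and was called by DESeq2, and Ccn1, a secreted matrix protein, was at -0.51 (SE 0.18, edgeR adjusted p = 0.134). Among 20 upstream regulators 2 were called by edgeR and by DESeq2, both higher in Old Veh mice as were most calls over all genes, and 7 of the 20 had an unadjusted p below 0.05, against the same 15.2%. Mef2a, a calcium-responsive factor, rose by 0.14 (SE 0.03, edgeR adjusted p = 0.00682) and Rps6ka5, a kinase that phosphorylates CREB and histone H3, by 0.19 (SE 0.05, edgeR adjusted p = 0.0365), while Elk4, an SRF partner, was at 0.19 (SE 0.06, edgeR adjusted p = 0.0789).

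In the same comparison 0 of the 15 delayed activity genes were called by edgeR, 3 had an unadjusted p below 0.05, against 15.2% of all genes, and DESeq2 called 0. Those 3 were Sorcs3, a neuronal sorting receptor, at 0.11 (SE 0.05), Ptgs2, the inducible cyclooxygenase, at 0.22 (SE 0.09) and Rasgrp1, an exchange factor for Ras, at 0.10 (SE 0.04), with edgeR adjusted p of 0.214, 0.222 and 0.232. Of the 11 dimer partners and feedback regulators 10 were tested, 0 were called by edgeR or DESeq2, and 1 had an unadjusted p below 0.05, against the same 15.2%. That gene was Rxra, a nuclear receptor partner of the Nr4a family, at -0.24 (SE 0.08, edgeR adjusted p = 0.0792), with Atf4, a stress factor, at -0.09 (SE 0.06) and Arnt, a dimer partner of PAS factors, at -0.08 (SE 0.05). In the other 4 comparisons edgeR and DESeq2 called 0 genes of these 4 lists. Unadjusted p below 0.05 was reached there by 4 rapid and 1 upstream gene for age in PF4 mice (8.27% of all genes), by 1 rapid, 4 upstream and 1 partner gene for PF4 in Old mice (6.2%), by 0 for PF4 in Young mice (1.2%) and by 1 upstream gene for the difference of the PF4 effects (3.98%).

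The same lists were set beside the members' mean z-score over the 47 mice, as a description of genes read from the same libraries. Of the 29 other rapid genes 24 were at r above 0 with a median of 0.247, and 6, or 20.7%, reached 0.4, against 1.47% of the 17768 tested genes that are not members, whose median was 0.000295. The 6 were Dusp5 at 0.640, Klf10 at 0.573, Dusp6 at 0.507, Gadd45b at 0.470, Per1 at 0.463 and Nr4a2 at 0.419. Dusp5 and Dusp6 encode phosphatases of the ERK kinases, Klf10 a zinc finger factor, Gadd45b a stress and demethylation factor, Per1 a clock component and Nr4a2 a relative of Nr4a1. These 6 were picked out after their values were seen. Nr4a2 was at 0.176 in Young and 0.659 in Old mice and Per1 at 0.621 and 0.244, differences that were not tested, while the other 4 lay between 0.455 and 0.682 in Young and between 0.459 and 0.624 in Old mice. The delayed genes had a median r of 0.0752, the partners 0.0776 and the upstream regulators -0.0526, with Creb1 highest of the last at 0.314.

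Cell type markers were set beside the same score, and their part in the likeness was not tested. The oligodendrocyte markers had a median r of -0.325 with 0 of 6 above 0, the choroid plexus markers -0.207 with 0 of 10, the dentate granule cell markers -0.223 with 1 of 6, the endothelial markers -0.137 with 1 of 6 and the microglial markers -0.125 with 1 of 6. The astrocyte markers were at 0.146 with 4 of 6 above 0, the CA pyramidal cell markers at 0.0885 with 4 of 6, the neuron markers at 0.0273 with 3 of 6 and the 2 tested of 5 red blood cell markers at 0.140, both above 0.

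Ranked over all tested genes, the 10 most like the members' score were Ccdc117 (r = 0.659), Dusp5 (0.640), Ing2 (0.620), Krit1 (0.614), Exosc6 (0.604), Dnajb1 (0.603), Zmym1 (0.594), Ak4 (0.589), Edrf1 (0.577) and Klf10 (0.573). The 5 least like it were Man2b1 (-0.589), Espl1 (-0.575), Gm47096 (-0.560), Gm9996 (-0.552) and Cyp4f17 (-0.551). Exosc6 was at 0.768 in Young and 0.377 in Old mice, a difference that was not tested, and Ccdc117 was at 0.661 and 0.663.

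**Figure D5:**
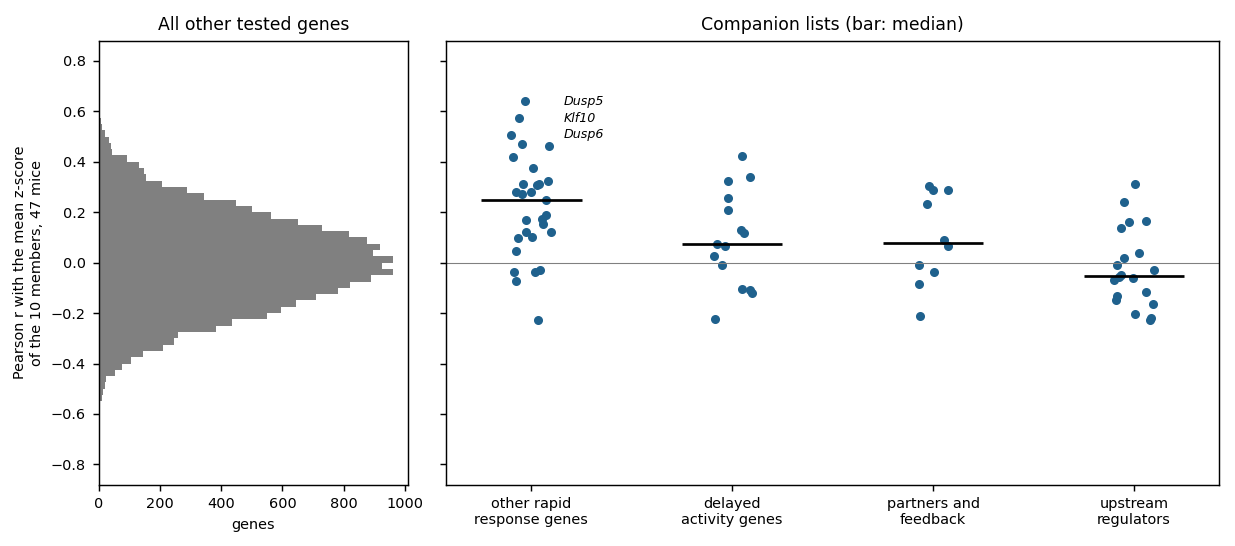
Pearson's r of each gene with the mean z-score of the 10 members over 47 mice (vertical axis), as a histogram of the 17768 other tested genes (left, number of genes) and as points for the genes of 4 companion lists (right), with bars at list medians. The other rapid genes sit highest, with a median of 0.247, led by Dusp5 at 0.640, and the upstream regulators sit around 0.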

How the data were processed

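RNA was measured in the hippocampus of 47 mice, 1 library per mouse, prepared with Smart-Seq2 and Nextera XT without strand information. The authors deposited raw read counts per gene for 35486 genes. Per the labels' processing notes they used Trim Galore 0.3.7, STAR 2.5.3a, GRCm38 and DESeq2, and per the study's methods samples of low coverage were excluded. The tool that counted reads, and whether it used reads in overlapping genes, was not given in the sources used here. Groups came from the sample titles.

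Counts were tested with edgeR 4.0.16 (quasi-likelihood test, TMM, filterByExpr, 4 groups in 1 fit) in R 4.3.3, over 17778 genes, with Benjamini-Hochberg adjustment over all of them and a threshold of 0.05. DESeq2 1.42.0, which the study used, was an alternative. Levels are TMM-scaled CPM. Correlations used log2 CPM (prior count 2) minus group means, with two-sided permutation of mice within groups (100000 resamples, Python 3.11.15). Positions and transcript lengths came from GENCODE M21. The length index is the mean log2 CPM of genes with transcripts of at least 4594 bases minus that of genes of at most 2006 bases, each gene taken relative to its mean over libraries. The members, marker lists and companion lists were chosen with earlier results of these data known. All members, every companion gene called, the 3 genes of smallest p per companion list in Old Veh against Young Veh, and the 10 genes most and 5 least like the members' mean z-score are named. Other filters, size factors, covariates, subsets and left-out libraries were tried, and the tests were checked on simulated data.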

Additional observations from a re-analysis of the deposited data

Results flagged for a closer look

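Junb in the Old PF4 group had 1 mouse far from the others. Replicate 8 was at 6.89 log2 CPM and the next mouse at 6.25, a gap of 0.596 of the range of the 10 mice. The same test was made for the 10 genes in this group, the only one of 10 or fewer mice, and chance marks about 1 in 20 groups. That mouse also had a length index of -0.23 and an astrocyte marker score (mean log2 CPM of the markers) of 9.49, the highest of the 47 libraries, and over all mice Junb was at r = 0.511 with that score (rho = 0.402, permutation p = 0.00108 and 0.0073, adjusted p = 0.0324 and 0.220; 0.271 without the 2 farthest). Their part in the value was not tested. Without that mouse the log2 fold change of Junb for PF4 in Old mice was -0.09, against 0.02 with all mice, and edgeR called neither.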

How the results depend on the processing

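The number of genes called was 0 of 10 in each of the 5 comparisons. For age in Veh mice it was 1 (Ier2) with DESeq2 and with a minimum count of 50, and between 0 and 1 over left-out libraries, as it was for age in PF4 mice (Npas4). All other settings gave 0. The median pairwise r lay between 0.232 and 0.372 over its alternatives and between 0.251 and 0.365 over left-out libraries, with a jackknife SE of 0.107. Same-numbered mice had median correlations from -0.082 to 0.112 over pairs of groups, with single pairs between -0.425 and 0.554. The 0.112 was that of Old Veh and Old PF4, against -0.032 for mice of other numbers. Some same-numbered Old mice were also of the same age in the labels. Whether same-numbered mice shared anything else was not given in the sources used here and was not tested. With the replicate block 0 members were called, and all calls for age in Veh mice numbered 453 against 492, those for age in PF4 mice 90 against 59 and those for PF4 in Old mice 10 against 6. Over all settings apart from left-out libraries these 3 numbers of calls over all genes ran from 176 (without libraries under 5000000 counts) to 901 (length index as covariate), from 21 (the 2 groups alone) to 98 (length index) and from 0 (3 of the settings) to 24 (DESeq2).

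Fold changes near 0 changed sign, none of them called. For age in Veh mice, Egr2 was at 0.0284 with DESeq2 and 0.0367 with the replicate block, Arc at 0.0563 with the block, and Npas4 at -0.000879 with the length index and -0.0416 with the choroid plexus score as covariate. For age in PF4 mice, Arc was at -0.00295 with a minimum count of 50, -0.0138 with the block, -0.0541 with the choroid plexus score and -0.0600 without libraries under 5000000 counts. Egr1 was at 0.000655 with the total count and 0.00476 with the length index. Egr2 was at -0.088 with the choroid plexus score and -0.0914 without the shallow libraries, and Egr4 at -0.0295 with the block, -0.0206 with that score and -0.00609 without those libraries. For PF4 in Old mice, Junb was at -0.0408 with the length index and Arc at 0.0294 without the shallow libraries. For PF4 in Young mice, Egr1 was at -0.00149 with the total count, and Nr4a1 at -0.000841 with DESeq2, -0.00105 with no filter, -0.00293 with the total count and -0.00108 with the length index. Ier2 was there at 0.00172 with a minimum count of 50, 0.000581 with the 2 groups alone, 0.0318 with the block, 0.0206 with the total count, 0.0585 with the length index and 0.0285 without the shallow libraries, which also put Arc at 0.0399. The cause was not tested.

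Over left-out libraries the following ranges crossed 0. For age in Veh mice they were -0.058 to 0.0511 for Arc, -0.151 to 0.13 for Egr2, -0.094 to 0.00137 for Egr4 and -0.0404 to 0.126 for Npas4. For age in PF4 mice they were -0.063 to 0.071 for Arc, -0.0524 to 0.0244 for Egr1, -0.0656 to 0.174 for Egr2 and -0.0452 to 0.0615 for Egr4. For PF4 in Old mice they were -0.0937 to 0.0505 for Junb and -0.0226 to 0.0827 for Nr4a1. For PF4 in Young mice they were -0.0144 to 0.0853 for Fosb, -0.0187 to 0.046 for Junb, -0.0191 to 0.0299 for Egr1, -0.0259 to 0.0868 for Egr4, -0.026 to 0.0372 for Nr4a1 and -0.0401 to 0.127 for Ier2. Counting error alone gave a coefficient of variation of 21.8% for Npas4 and 23.6% for Egr2, beside fitted biological ones of 29.6% and 36.8%. Npas4, Fosb and Egr2 were not tested with a minimum count of 50, which they did not pass.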
